A study of Bos taurus with 6 samples.

Results

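The transforming growth factor beta (TGF-beta) and bone morphogenetic protein (BMP) members described here are 9 genes: the ligands TGFB2, INHBA and BMP2, the receptor TGFBR2, the inhibitors PMEPA1 and BAMBI, and the targets or associated proteins TGFBI, ID3 and NREP. They were found as all probe sets whose single gene symbol in the platform annotation is one of these names, which gave 11 of the 24016 non-control probe sets, for 9 of 9155 named genes. TGFBR2 and NREP had 2 probe sets each and the other 7 genes had 1. A probe set is the group of short array probes that together measure 1 transcript. No sequence or genome position is given for them here.

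Bovine mesenchymal stem cells (MSCs), the marrow stromal cells that can form cartilage, bone or fat, were held in agarose gel in a chemically defined medium, and total RNA was measured on 6 Affymetrix arrays, 1 per condition. No TGF-beta3 was given in 3 conditions, taken at days 3, 21 and 42. Another 2 had TGF-beta3 throughout, up to day 21 or day 42, without loading. In the last, constructs had TGF-beta3 throughout, were left unloaded for 21 days and were then compressed cyclically for 21 more days, to day 42. No day 3 array with TGF-beta3 and no loaded array without it was analysed here. The number of donors behind the cells and whether constructs were pooled are not given in the sources used here. With no replicates, precision is limited by how few arrays there are, and the spread between cultures of the same condition was not measured. In the main fit below, a p-value rests on how far differences with TGF-beta3 varied between days 21 and 42, pooled over probe sets.

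TGF-beta ligands bind a type II receptor, which joins and activates a type I receptor, and the pair phosphorylates SMAD proteins that enter the nucleus and alter transcription. TGF-beta and activin act mainly through SMAD2 and SMAD3 and BMPs mainly through SMAD1, SMAD5 and SMAD9, while inhibitors made by the responding cell limit the signal at the ligand, the receptor or the SMAD. In marrow stromal cells TGF-beta starts cartilage formation, and BMPs support cartilage and bone formation. TGF-beta3 was supplied as protein in the medium, so the array measures the cells' own transcripts for pathway parts.

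Values are the authors' linear signal. The floor, below which a signal was treated as not measured, was 15.1, the 40th percentile of all values. Between 54.9% and 65.3% of probe sets lay above it on the 6 arrays. Hybridisation spikes, foreign transcripts added in fixed amounts, had a median signal of 2618 to 3727 on 4 of the arrays. The exceptions were the day 42 arrays with TGF-beta3, where it was 7304 unloaded and 5823 loaded. All 9 stromal cell markers were above the floor on 5 of the arrays and 8 on the loaded one, where THY1 was at 7.80. Of 9 chondrocyte markers 7 were measured, and their summed signal was 8201 to 10571 without TGF-beta3 and 35147 to 60862 with it. Markers of other cells moved with TGF-beta3 as well. The sum of 6 measured adipocyte markers was 5067 to 17432 without it and 467 to 929.6 with it, and that of 7 measured macrophage and blood cell markers 227 to 584 and 51.6 to 118.5. With TGF-beta3, the macrophage markers AIF1, CD53 and CD68 were under the floor on all 3 arrays, CD14 was above it on all 3 at 17.6 to 28.5, and CSF1R, under it on every array without TGF-beta3, read 17.5 and 29.3 on the unloaded ones. Among the arrays with TGF-beta3, PTPRC passed the floor only at day 42 unloaded (20.1) and TYROBP only on the loaded one (21.2). Of 5 endothelial markers VWF, CDH5 and KDR were under the floor on every array. TEK read 21.8 to 48.4 on 5 arrays and PECAM1 20.8 on 1. Of 5 epithelial markers 4 passed the floor on at least 1 array, and KRT8 on none. In such bulk samples fewer cells of a type and less RNA per cell cannot be told apart, and the part of cell makeup in the results below was not tested.

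The question asked first was how TGF-beta3 altered the cells' own pathway transcripts. Over days 21 and 42, 6 of the 9 genes rose with TGF-beta3 (TGFBR2, TGFBI, INHBA, PMEPA1, ID3 and NREP), TGFB2 fell, and BMP2 and BAMBI did not pass the test. PMEPA1 entered the test only through the arrays with TGF-beta3, where it is high, so its direction was fixed by that filter. ID3 also needed an array with TGF-beta3 to enter, since its day 21 control was under the floor. Its day 42 control, at 17.6, was barely above it, so ID3 could hardly have been called fallen. The totals given here and below still count both genes. By probe set, 7 of 11 rose and 1 fell, where 5.84% of all 14839 tested probe sets rose and 7.33% fell. "Rose" and "fell" refer to limma on the 4 unloaded arrays of these days, 2 with and 2 without TGF-beta3, with a term for day and Benjamini-Hochberg adjusted p under 0.05 over all probe sets tested. Each probe set leaves 1 residual degree of freedom of its own, the change of its TGF-beta3 difference between the days. The yardstick for a mean difference is thus a spread estimated largely from the other probe sets. A response that truly differs by day counts as error in this fit. The median difference was log2 1.78 over the 11 member probe sets and 0.06 over all tested. The members were chosen with earlier results of these data known. Their shares and median, here and in the comparisons below, are thus not independent evidence that the family responds.

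TGFB2 encodes a ligand of the same family as the TGF-beta3 that was supplied. Without TGF-beta3 its signal was 2275 at day 3, 1263 at day 21 and 701 at day 42. With it, the signal was 250.3 at day 21 and 175 at day 42, and 291 on the loaded array. Every array with TGF-beta3 lay below every array without it, also across days. TGFB2 was 5.04-fold lower with TGF-beta3 at day 21 and 4.0-fold lower at day 42, and it fell (limma mean log2 -2.17 ± 0.36 SE, adjusted p = 1.23e-05). That call was lost in limma when the day 21 control and the day term were left out (adjusted p = 0.143). Its control signal was at its highest at day 3 and lower at each later time, by log2 0.85 from day 3 to day 21 and again by 0.85 from day 21 to day 42.

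INHBA encodes the beta A subunit, a pair of which forms activin A, a ligand that signals through SMAD2 and SMAD3 as TGF-beta does. Its signal was 91.1, 42.0 and 26.2 without TGF-beta3 at days 3, 21 and 42, and 443 and 301 with it at days 21 and 42, with 495 on the loaded array. The groups did not overlap; the lowest value with TGF-beta3, 301, compares with 91.1 as the highest without it. INHBA was higher 10.6-fold at day 21 and 11.5-fold at day 42, and it rose (limma mean log2 3.46 ± 0.59 SE, adjusted p = 1.45e-05). Like TGFB2, it was lower at each later time without TGF-beta3, and even its day 3 control stood below every array with it.

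BMP2 encodes a BMP ligand that promotes bone and cartilage formation. It had its highest signal, 366, on the day 3 array and stood at 95.2 and 126 without TGF-beta3 and at 160 and 122 with it at days 21 and 42. The loaded array was at 314, the next highest after day 3. The groups with and without TGF-beta3 thus overlapped. Its mean log2 difference was 0.35, with a 95% interval from -0.77 to 1.5 (adjusted p = 0.748 by limma), so a rise of 2-fold lies within what these arrays allow. TGFB3, the gene for the ligand supplied as protein, was close to the floor throughout, at 15.8 to 33.1 without and 20.7 to 35.5 with TGF-beta3, and missed the limma threshold (adjusted p = 0.707).

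TGFBR2 encodes the type II receptor that binds TGF-beta first. On its brighter probe set the signal was 660.3, 573 and 511 without TGF-beta3 at days 3, 21 and 42, then 1239 and 1717 with it at days 21 and 42 and 1557 on the loaded array. These groups did not overlap. The receptor rose (limma mean log2 1.43 ± 0.34 SE, adjusted p = 0.00209), with folds of 2.16 at day 21 and 3.36 at day 42. The dim probe set read 22, 33.2 and 50.9 without TGF-beta3 and 123 and 120 with it at days 21 and 42, but 36.2 on the loaded array, within the range of the controls. It did not pass the test (mean log2 1.57 ± 0.69 SE, adjusted p = 0.131 by limma), although it did with the floor at the 60th percentile (adjusted p = 0.0302 by limma). The brighter probe set lost its call under median centring (adjusted p = 0.159 by limma), under spike scaling (0.729), without the variance trend (0.114) and without the day term (0.0572).

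PMEPA1 is a membrane protein induced by TGF-beta that holds back SMAD2 and SMAD3. It was under the floor on all 3 arrays without TGF-beta3, with raw signals of 5.81, 7.06 and 9.16, and read 63.3, 68.4 and 77.3 on the 3 with it. The last value is from the loaded array. With controls at the floor its folds are bounds, at least 4.18 at day 21 and at least 4.52 at day 42. It rose in limma (mean log2 2.12 ± 0.65 SE, adjusted p = 0.0215), a fitted value that depends on the floor. Only the arrays with TGF-beta3 brought it into the test, so this p-value is no evidence of a rise. The call was lost with a floor at percentile 60 (log2 0.24, adjusted p = 0.586 by limma) and without the day term (0.0679).

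BAMBI is a receptor-like protein without a kinase that blocks TGF-beta and BMP receptors. Its signal was 6.88, 7.81 and 15.9 without TGF-beta3 at days 3, 21 and 42, so only the last was above the floor. With TGF-beta3 it was 12.4 at day 21, under the floor, and 40.9 at day 42, and 149.5 on the loaded array. The day 21 pair could not be compared, and at day 42 BAMBI was 2.58-fold higher with TGF-beta3. It did not pass the test (mean log2 0.68, 95% interval -0.38 to 1.74, adjusted p = 0.439 by limma). When the loaded array stood in for the unloaded it did (mean log2 1.62, adjusted p = 0.0413 by limma).

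TGFBI, a secreted matrix protein named for its induction by TGF-beta, showed the widest gap of the 9 genes. The 3 arrays without TGF-beta3 read 61.4, 90.8 and 99.2, in order of day, and those with it 1647 at day 21, 1733 at day 42 and 2814 under loading. The fold was 18.1 at day 21 and 17.5 at day 42, and TGFBI rose (limma mean log2 4.15 ± 0.37 SE, adjusted p = 1.04e-12). By the size of this mean in either direction it held rank 130 of the 14839 tested probe sets.

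ID3 is a helix-loop-helix protein that blocks lineage transcription factors and is a direct target of BMP signalling through SMAD1 and SMAD5. It read 36.1, 5.72 and 17.6 without TGF-beta3 at days 3, 21 and 42, and 49.0, 127 and 125 with it at days 21 and 42 and under loading. The groups did not overlap, but the day 3 control and the day 21 array with TGF-beta3 were close, at 36.1 and 49.0. Its fold was at least 3.24 at day 21 and 7.20 at day 42. ID3 rose (limma mean log2 2.27 ± 0.69 SE, adjusted p = 0.0187), and the call was lost under spike scaling (0.0632) and without the day term (0.113). With its day 21 control under the floor, ID3 needed an array with TGF-beta3, where it is high, to enter the test. This p-value is thus no evidence of a rise. The fitted mean depends on the floor (log2 2.97 with the floor at percentile 25).

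NREP is a small intracellular protein known to raise TGF-beta production in wound fibroblasts. Both of its probe sets rose. On the brighter one the signal was 1320.2, 1216 and 742 without TGF-beta3 at days 3, 21 and 42, against 3817, 5121 and 4318 with it at days 21 and 42 and under loading. On the dimmer one the values were 1364, 1113 and 931 against 3249, 3788 and 5741. Neither probe set had an overlap between the groups. The mean log2 differences were 2.22 ± 0.36 (SE, adjusted p = 4.72e-06 by limma) and 1.78 ± 0.35 (adjusted p = 0.000138 by limma). Both calls were lost under spike scaling (0.275 and 0.498), and the call of the dimmer one was also lost without the variance trend (0.0584).

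**Figure D1:**
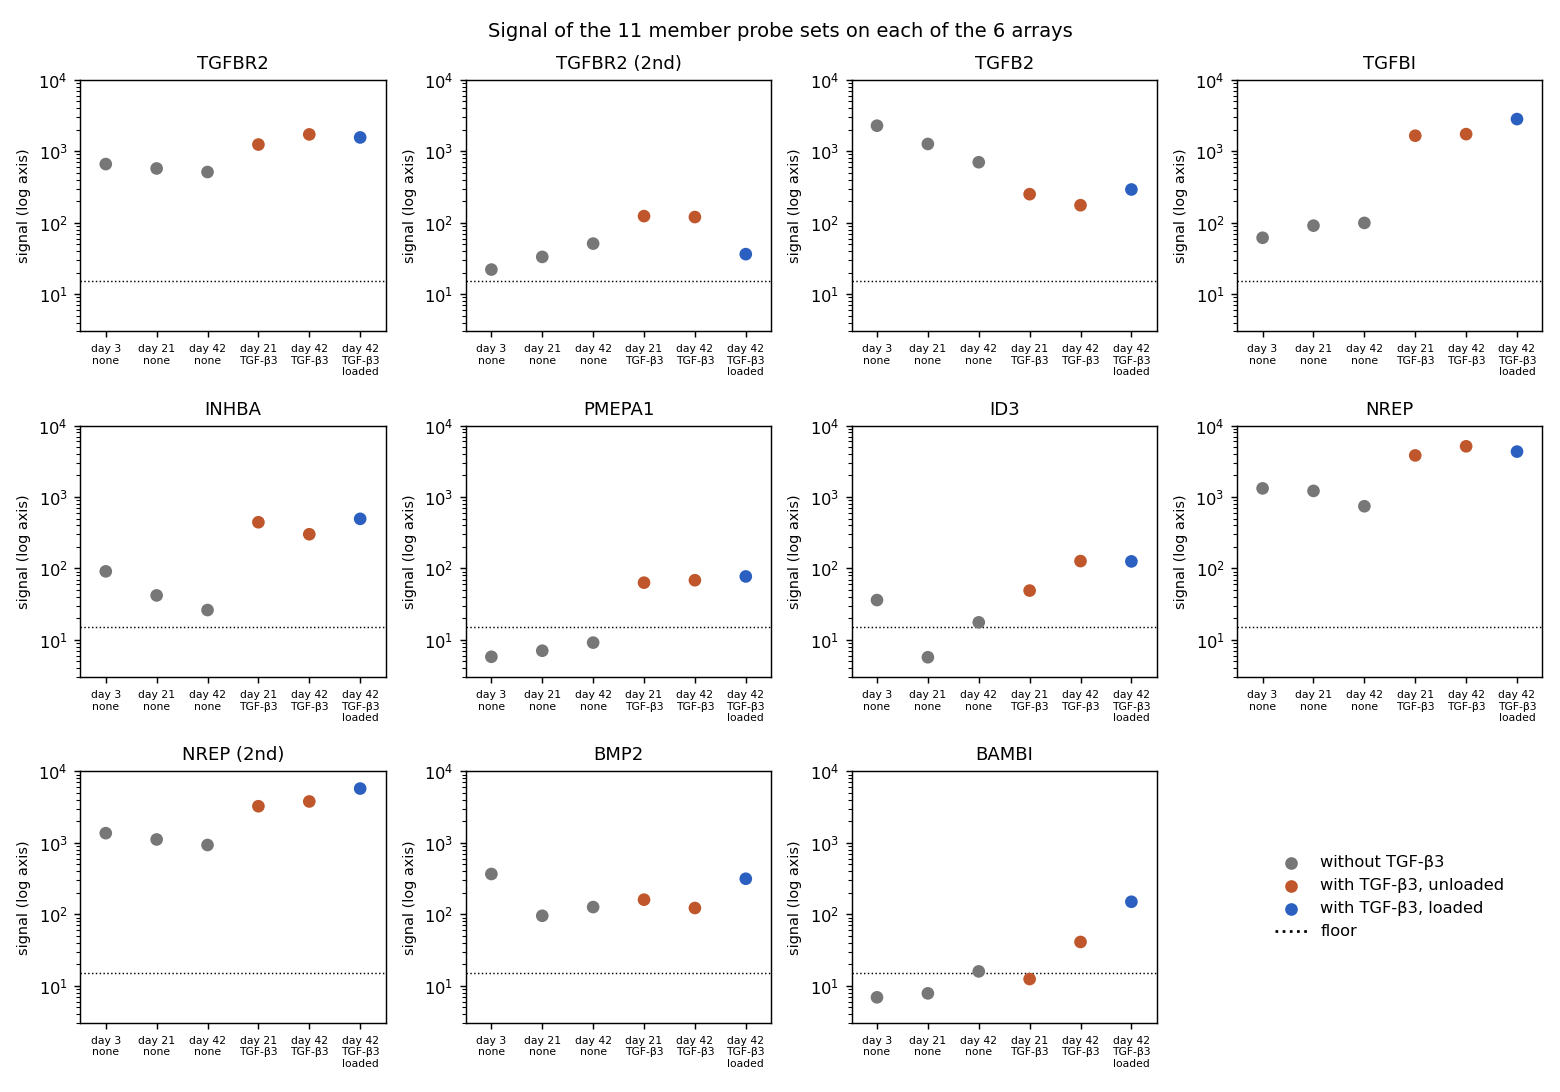
Signal (log axis) of each of the 11 member probe sets on the 6 arrays, 1 point per array, with the floor of 15.1 as a dotted line ("2nd" marks the dimmer probe set of TGFBR2 and NREP). TGFBI, INHBA, PMEPA1, ID3, NREP and the brighter TGFBR2 probe set are higher on all 3 arrays with TGF-beta3, TGFB2 is lower on all 3, BAMBI is highest on the loaded array, and BMP2 is highest at day 3 with the loaded array next.

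Across all 3 arrays of each kind, 7 member probe sets were higher on every array with TGF-beta3 than on any without it, 1 was lower and 3 overlapped. Among the 18825 probe sets that passed the floor on any array, 18.7% were higher on all 3 and 13.7% lower, so separation by itself was common. By size, 8 of the 10 member probe sets above the floor at day 21 were at least 2-fold higher and 1 lower, where 13.3% of all probe sets were higher and 15.7% lower. At day 42 it was 9 higher and 1 lower of 11, where 24.5% were higher and 16.2% lower. A probe set with its control under the floor could not come out lower. That held for PMEPA1 at days 21 and 42 and for ID3 at day 21, which are counted as higher. The median of all probe sets was 0.21 higher with TGF-beta3 at day 42, the spikes 1.39 and 59 ribosomal protein genes 1.26 (log2). At day 21 these shifts were 0.00, 0.27 and 0.48. Their part in the day 42 differences was not tested. With the arrays scaled to the spikes, TGFBI, INHBA, ID3 and PMEPA1 were still higher at day 42, by log2 2.74, 2.14, 1.46 and at least 1.33, and TGFB2 was lower, at -3.39, while BAMBI (-0.02) and the dim TGFBR2 probe set (-0.15) turned to the other side of 0. The brighter TGFBR2 probe set (0.36) and the dimmer NREP one (0.64) no longer reached 2-fold, and BMP2 was lower (-1.43), so that 5 members were at least 2-fold higher and 2 lower.

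The calls with the most support across other ways of processing were those of TGFBI and INHBA. Both passed under all 15 alternatives run for this test, with adjusted p up to 0.0105 and 0.0490 by limma. TGFB2 passed under 14 of 15. The NREP probe sets passed under 13 and 11, the brighter TGFBR2 probe set under 9, PMEPA1 under 8 of the 12 that could test it, and ID3 under 8 of 13. Dropping either control, and with it the day term, moved the calls most. Without the day 21 control, TGFBR2 (adjusted p = 0.158 by limma), PMEPA1 (0.500), ID3 (0.524) and the dimmer NREP probe set (0.0796) lost theirs along with TGFB2. Without the day 42 control TGFBR2 (0.272), PMEPA1 (0.548), ID3 (0.473) and both NREP probe sets (0.136 and 0.197) did. Dropping instead the day 42 culture with TGF-beta3 cost ID3 its call (0.0688), and PMEPA1 could not be tested there or without the day 21 culture with TGF-beta3.

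The next question was what cyclic compression added to TGF-beta3 at day 42, a comparison of 1 array with 1 and so without a test. BAMBI was 3.65-fold higher on the loaded array, at a signal of 149.5 against 40.9, and BMP2 2.57-fold higher, at 314 against 122. The dim TGFBR2 probe set was 3.30-fold lower, at 36.2 against 120. The other 8 probe sets were within 2-fold. Thus 2 of 11 were higher and 1 was lower, where 10.2% of all 17448 probe sets compared were higher and 8.2% lower. The median difference was log2 0.60 over the members and 0.00 over all probe sets.

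TGFB2, INHBA and TGFBI shared a smaller difference in one direction, 1.66-fold, 1.64-fold and 1.62-fold higher under loading. The inhibitor PMEPA1 and the BMP target ID3 differed by log2 0.18 and -0.01. Probe sets of 1 gene did not go together. The brighter TGFBR2 probe set was lower by log2 0.14 where the dim one was lower by 1.72, and the NREP probe sets were at -0.25 and 0.60. The loaded array had spikes lower by log2 0.39 and ribosomal protein genes lower by 0.43 than the unloaded one, and a cyclophilin 3 prime to 5 prime ratio of 7.52 against 4.95, with 1.80 against 2.15 for GAPDH. The part of these in the differences was not tested. Scaled to the spikes, 6 members passed 2-fold in place of 3, since TGFB2 (1.13), INHBA (1.11) and TGFBI (1.10) joined BAMBI (2.27) and BMP2 (1.76) above log2 1. With the floor at a signal of 100 BMP2 was the only one left, at log2 1.36. Against the day 21 array with TGF-beta3, from before loading began, the loaded array had BAMBI at least 9.87-fold higher and ID3 2.56-fold higher. The dim TGFBR2 probe set was 3.41-fold lower and BMP2 1.96-fold higher. Of all 16605 probe sets compared, 15.1% were at least 2-fold higher and 9.97% lower. BAMBI was under the floor at day 21, so it could not come out lower in this pair.

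**Figure D2:**
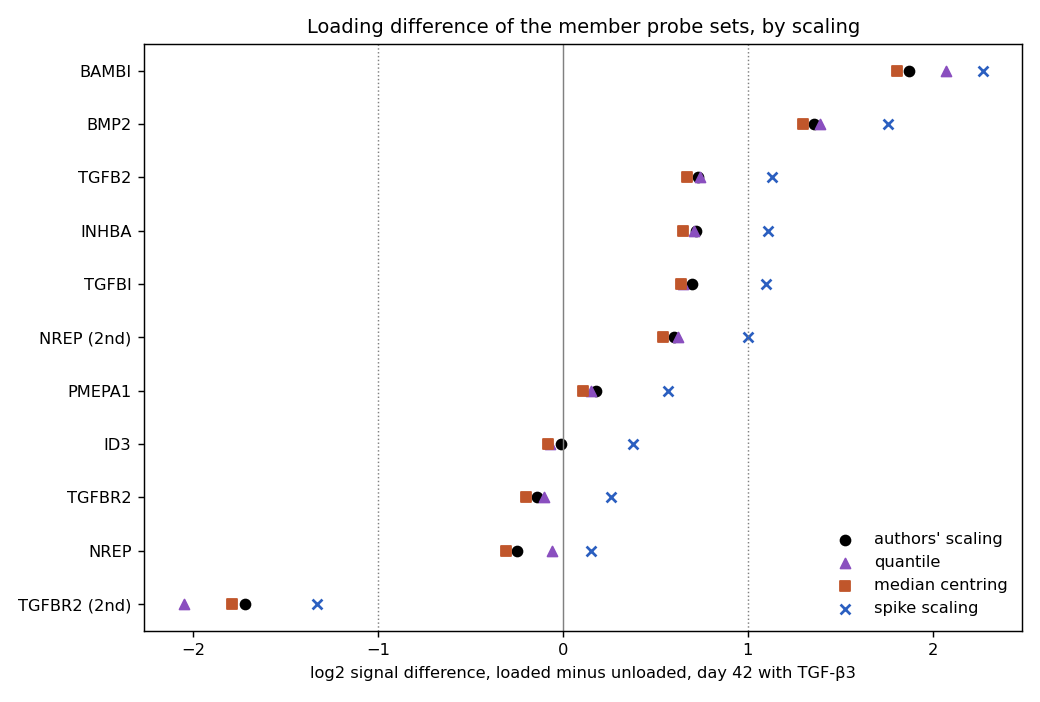
Log2 signal difference, loaded minus unloaded, of each member probe set at day 42 with TGF-beta3 under 4 scalings of the arrays, with dotted lines at 2-fold. BAMBI and BMP2 lie beyond 2-fold to the right and the dim TGFBR2 probe set to the left under every scaling drawn, while TGFB2, INHBA and TGFBI pass the right line under spike scaling only.

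Time in culture was compared next, again with 1 array on each side. Without TGF-beta3, BMP2 was 3.84-fold lower at day 21 than at day 3, ID3 at least 2.38-fold lower and INHBA 2.17-fold lower, so 3 of the 9 probe sets that could be compared were lower and none higher, where 5.2% of all 15054 were lower and 7.18% higher. ID3 was under the floor at day 21, so it could not come out higher. The spikes were lower by log2 0.45 in the same pair. INHBA no longer reached 2-fold when scaled to them (-0.67), with a floor at percentile 60 (-0.71) or with a pseudocount (-0.90). From day 21 to day 42 without TGF-beta3 none of 10 differed by 2-fold, where 3.29% of 14737 probe sets were higher and 10.1% lower. The largest were TGFB2, lower by 0.85 on the log2 scale, and the brighter NREP probe set and INHBA, at -0.71 and -0.68.

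With TGF-beta3, ID3 was 2.59-fold higher at day 42 than at day 21 and BAMBI at least 2.70-fold higher, and the other 9 probe sets were within 2-fold, where 18.1% of 16859 probe sets were higher and 14.1% lower. BAMBI was under the floor at day 21, so it could not come out lower here. TGFBI differed by log2 0.07 and PMEPA1 by 0.11. The spikes were higher by log2 1.24 in this pair. With the arrays scaled to them, ID3 and BAMBI were higher by only 0.15 and at least 0.50, and 7 member probe sets were at least 2-fold lower. These comparisons share arrays with those of TGF-beta3 against none and are not separate evidence of them.

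The wider pathway was read from a list of 85 gene symbols in 6 roles, with the brightest probe set for each gene. On this array 49 were named and 37 were bright enough to test, of which 9 rose and 3 fell with TGF-beta3, against 7.11% and 7.7% of all 6835 genes tested. These counts include PMEPA1 as risen and BMPER as fallen, whose directions were fixed by the filter. They also include ID3 and FSTL3 as risen. Each had its day 21 control under the floor and needed an array with TGF-beta3 to enter, so neither could well have been called fallen. The median log2 difference was 0.44 for the list and 0.13 for all genes. Without the 9 members, 3 of 28 rose, FSTL3 among them, and 2 fell, BMPER among them, with a median of 0.27.

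Among 4 ligands tested, INHBA rose and TGFB2 fell. TGFB1 and the BMP genes other than BMP2 that were on the array could not be tested. Of 8 receptors, TGFBR2 rose and ACVR2A, a type II receptor for activin, fell. ACVR2A read 1048, 993 and 744 without TGF-beta3 at days 3, 21 and 42, and 274 and 217 with it at days 21 and 42 and 255 under loading. The groups did not overlap, and its mean log2 difference was -1.82 ± 0.36 (SE, adjusted p = 0.000208 by limma), lost under spike scaling (0.0575), without the variance trend (0.0531) and without the day 21 control and the day term (0.172).

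None of 4 SMAD genes passed (25 of the 37 list genes did not). SMAD3, which carries the TGF-beta and activin signal, had the highest mean log2 difference of these, 1.57 ± 0.56 (SE, adjusted p = 0.0530 by limma). SMAD5, which carries the BMP signal, had the lowest, -1.19 ± 0.58 (adjusted p = 0.181 by limma), but its dimmer probe set lay on the other side of 0, at 0.60 ± 0.61 (adjusted p = 0.583 by limma).

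Of 6 extracellular regulators, FSTL3 rose and BMPER fell. FSTL3, a secreted protein that binds and blocks activin, read 13.7, 9.89 and 16.5 without TGF-beta3 in order of day, and 105, 71.3 and 79.1 with it, the last under loading. Its fold was at least 6.95 at day 21 and 4.33 at day 42 (limma mean log2 2.46 ± 0.69 SE, adjusted p = 0.0101), and its call was lost with a floor at percentile 60 (0.164) and without the day term (0.0634), and in the fits without either control array (0.423 and 0.422). With its day 21 control under the floor, FSTL3 needed an array with TGF-beta3, where it is high, to enter the test. Its p-value is thus no evidence of a rise. BMPER, a secreted BMP-binding protein, was at 140, 239 and 143 without TGF-beta3. On all 3 arrays with TGF-beta3 it was under the floor, at most 5.39. BMPER fell (limma mean log2 -3.61 ± 0.72 SE, adjusted p = 0.000214), its signal being lower by a factor of at least 15.8 (day 21) and at least 9.45 (day 42). The fitted mean depends on the floor (-1.74 at percentile 60). BMPER entered the test only through the control arrays, where it is high, so its direction was fixed by that filter and its p-value is no evidence of a fall. It could not be tested with either of these control arrays left out. FST, which also blocks activin, read 161 and 68.7 with TGF-beta3 at days 21 and 42 against 43.9 and 14.4 without it, the last under the floor, and missed the threshold (adjusted p = 0.0512 by limma).

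Among 5 cellular inhibitors, TGIF1, a co-repressor of SMAD2 and SMAD3, rose with PMEPA1. On its brighter probe set the 2 days differed in size: it was 1.14-fold higher at day 21 (489 against 427) and 5.05-fold higher at day 42 (1513 against 300). Its mean log2 difference of 1.26 ± 0.38 (SE, adjusted p = 0.0185 by limma) lost the call under 9 of 15 alternatives, with adjusted p up to 0.819 by limma. The dimmer TGIF1 probe set did not pass (mean log2 1.08 ± 0.4 SE, adjusted p = 0.0654 by limma). PPM1A, a phosphatase that acts on SMAD2 and SMAD3, had the lowest mean of this role and did not pass (adjusted p = 0.209 by limma).

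Of 10 targets tested, TGFBI, ID3, NREP and JUNB rose. JUNB, an AP-1 transcription factor switched on by TGF-beta, read 272, 218 and 205 without TGF-beta3 in order of day, 728 and 773 with it and 1263 under loading. Its groups did not overlap, and its mean log2 difference was 1.83 ± 0.37 (SE, adjusted p = 0.000280 by limma), with the call lost under median centring (0.0966), spike scaling (0.581), without the variance trend (0.0523) and without the day 21 or day 42 control together with the day term (0.0545 and 0.0683). Of the 3 ID genes tested, ID3 passed and ID1 and ID2 did not. On its brighter probe set ID2 read 209 and 240.0 without TGF-beta3 at days 21 and 42, and 58.4 and 121 with it (mean log2 -1.41 ± 0.54, adjusted p = 0.0717 by limma), whereas the limma mean of ID1 was log2 1.82 ± 0.69 (adjusted p = 0.0732). The dimmer ID2 probe set had a mean log2 of 0.08 ± 0.58 (limma adjusted p = 0.946).

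**Figure D3:**
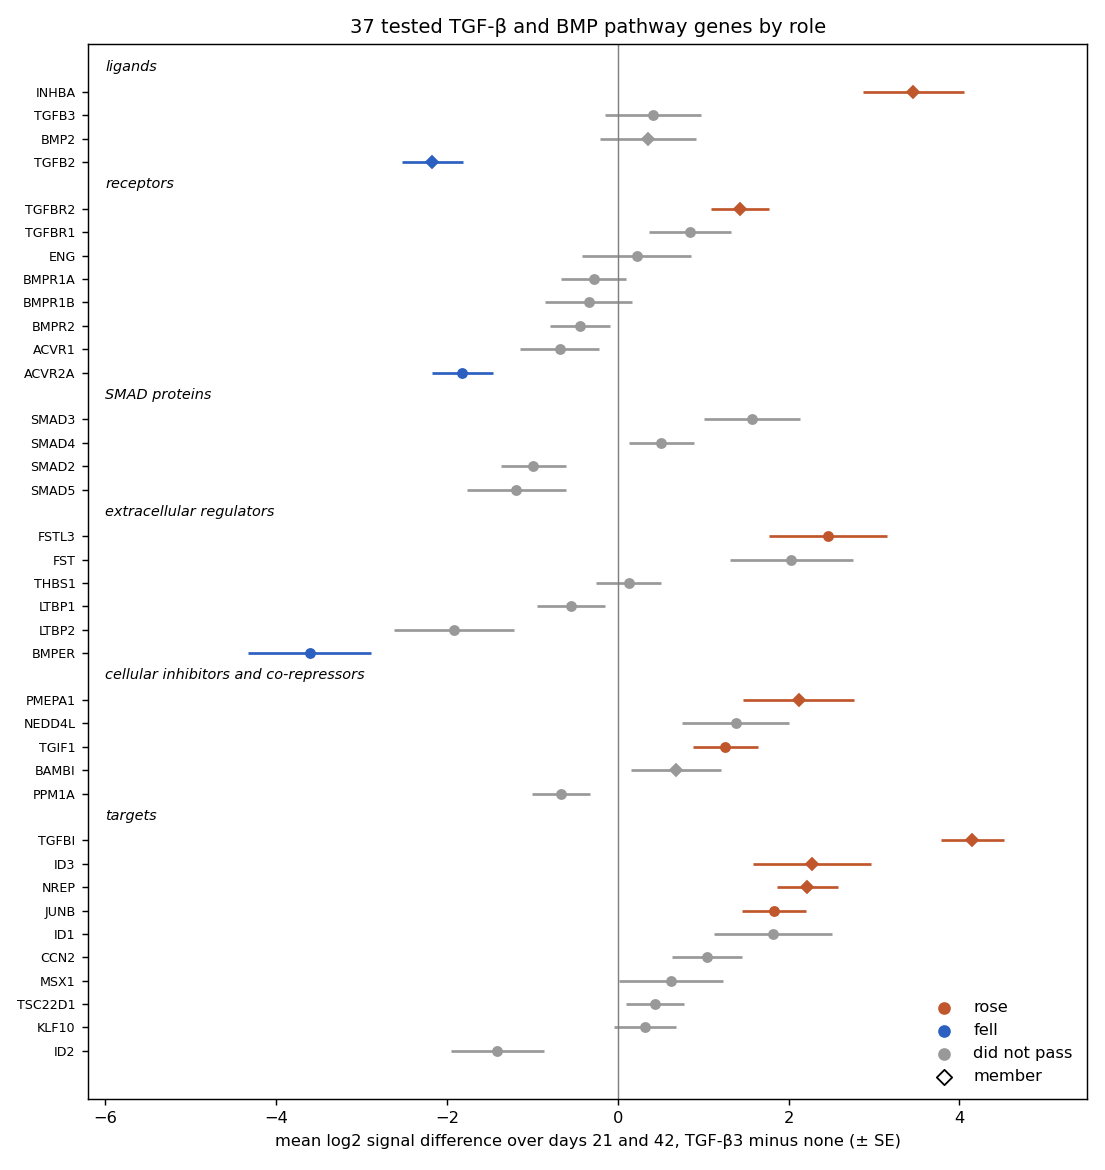
Mean log2 signal difference over days 21 and 42, TGF-beta3 minus none, with its standard error, for the 37 pathway genes that could be tested, ordered within 6 roles (diamonds are the 9 members). Ligands, receptors and extracellular regulators each hold 1 gene that rose and 1 that fell, while the genes that rose among inhibitors and targets have no fallen gene beside them. Of all 6835 genes tested 7.7% fell, so the absence of a fallen gene in such small roles is no result about them.

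Under loading, 3 of 41 pathway genes that could be compared were at least 2-fold higher and 1 lower, where 8.41% of 7703 genes were higher and 7.41% lower. Beside BAMBI and BMP2 the third was ID2, at 300 on the loaded against 121 on the unloaded array on its brighter probe set. The lower one was the transcription factor MSX1 (log2 -1.28), which is named here after its values were seen. The dimmer ID2 probe set went the other way, at 28.7 loaded against 42.0 unloaded (log2 -0.55). The dimmer MSX1 probe set was at log2 -0.44, a bound because its loaded signal was under the floor.

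The genes with the most similar profile to each member were sought among 6669 others by the root mean square distance between log2 signals over the 6 arrays, each gene centred on its own mean. The genes nearest to TGFBI were COLGALT2, a collagen glycosyltransferase (distance 0.42), and COL11A2, a cartilage fibril collagen (0.44). For TGFB2 they were RBM43 (0.20) and EDNRA, an endothelin receptor (0.24), and for INHBA ANXA8L1 (0.28) and the transcription factor LEF1 (0.29). NREP lay nearest to the transcription factor FOS (0.16) and POFUT2 (0.19), TGFBR2 to SYT4 and ISY1 (0.11 each), PMEPA1 to CFI (0.11) and F11R (0.12), and ID3 to ING1 (0.15) and BRD2 (0.24). BMP2 had ME3 (0.24) and the complement protease MASP1 (0.27), and BAMBI the metallothionein MT3 (0.24) and the stromelysin MMP3 (0.38). Between members the smallest distance was that of PMEPA1 and NREP (0.30) and the largest that of TGFB2 and TGFBI (3.59). These distances describe 6 arrays that share their scaling, and values at the floor count as equal.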

How the data were processed

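MAS5, named in the submitters' processing notes with no version given in the sources used here, made the deposited linear intensity of each probe set. RNA was amplified linearly by ribo-SPIA, per the labels' protocols. The 2% trimmed mean was 150 on each array, and this scaling by the authors was kept. Of 24128 probe sets, 112 controls were left out. All 11 member probe sets kept their symbol through Entrez identifiers in the RefSeq gene table (ARS-UCD2.0). Values under the floor were set to it before taking log2. A pair of arrays was compared where at least 1 signal passed the floor, with 2-fold as the size rule, and a fold with 1 side under the floor is a bound. TGF-beta3 was tested in limma 3.58.1 (R 4.3.3, variance trend, 49.8 prior degrees of freedom) on 14839 probe sets measured on 2 or more of the 4 arrays. The fit was also tested on simulated data, where it recovered 5.0% of changes of log2 1 and 99.0% of changes of log2 3. That simulation changed bright probe sets only and gave every probe set the same noise. A gene that did not pass may thus still differ by 2-fold. Named genes are the 9 members, list genes that passed or had the extreme mean of their role, and the 2 nearest profiles per member; other list genes were quoted after their values were seen. The members, lists and tests were chosen with earlier results of these data known. Alternatives were quantile, median and spike scaling, other floors, a pseudocount, no variance trend, no day term, the loaded array added or exchanged, each array left out, and thresholds of 1.5-fold and 3-fold. Tables and plots used Python 3.11.15 with pandas 2.3.3, numpy 2.4.6 and matplotlib 3.10.9. The constructs' mechanics and biochemistry were not analysed here.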

Additional observations from a re-analysis of the deposited data

Results flagged for a closer look

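BMP2 had TGF-beta3 differences of opposite sign on the 2 days, log2 0.75 at day 21 (160 against 95.2) and -0.04 at day 42 (122 against 126). Both were within 2-fold, with 1 array on each side, and whether they differ was not tested. Groups of 1 array allowed no search for outlying samples.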

How the results depend on the processing

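With 1 array per condition no spread within a condition was measured, and small differences and dim genes are the least certain. There were no replicates within a condition to pair with those of another. The term for day, which sets each array with TGF-beta3 against the control of its day, is the only block. All 1954 calls of the TGF-beta3 test became 1262 under spike scaling, 1030 without the variance trend and 570 without the day term, and 340 to 3773 when 1 array was dropped along with the day term. The 7 member probe sets that rose became 3 under spike scaling, 4 without the day term and 2 to 6 when 1 array was dropped along with it, and the 1 that fell became 0 to 1. BMP2 reversed under spike scaling (mean log2 -0.47), as did the day 42 differences of the dim TGFBR2 probe set (-0.15) and BAMBI (-0.02). The cause was not tested. Of member probe sets past the size rule, the 10 at day 42 with TGF-beta3 against none became 6 with the floor at a signal of 100. For loading the 3 became 6 under spike scaling, 1 with the floor at 100 and 7 at 1.5-fold. For day 42 against day 21 with TGF-beta3 the 2 became 7 under spike scaling, 1 with a floor at percentile 60, 0 with one at 100 and 0 at 3-fold. For the loaded array against day 21 the 3 became 0 with the floor at 100 and 6 at 1.5-fold. For day 21 against day 3 without TGF-beta3 the 3 became 1 with a floor at percentile 60, 1 at 100, 5 at 1.5-fold and 1 at 3-fold, and for day 42 against day 21 without it the 0 became 2 with a floor at percentile 25 and 4 at 1.5-fold. The split of all probe sets called at day 42 with TGF-beta3, 4127 higher and 2734 lower, was 2472 and 4820 under median centring and 953 and 8251 under spike scaling. Over the counts of calls named here, 81 of 108 alternatives kept the count within 1.5 times.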

Other observations

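Several pathway genes had probe sets that disagreed. The brighter SMAD3 probe set was higher with TGF-beta3 by log2 1.64 at day 21, and the other was at -0.29 there, while at day 42 they stood at 1.5 and 1.55. For BMPR1A, a type I BMP receptor, the day 42 differences were -0.40 and 1.81. THBS1, a matrix protein that can release TGF-beta from its latent form, had 6 probe sets, whose day 42 differences ran from -2.25 to 0.75, and none of which was under the floor on any array. The brightest was at -0.21. The type I receptor TGFBR1 read 402 with and 147 without TGF-beta3 at day 21, a 2.74-fold difference, and 146 and 123 at day 42, and missed the limma threshold (adjusted p = 0.261). The day 3 array without TGF-beta3, at 410.2, was close to the day 21 array with it.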
